A study of Mus musculus with 15 samples.

Results

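Genes of fatty acid oxidation and ketogenesis were followed in the livers of mice after Roux-en-Y gastric bypass. They were chosen as a list of 40 gene symbols, and a gene was counted as measured where the probe table of the array names a transcript cluster with that single symbol. By this rule 39 of the 40 were measured, among the 22180 genes of the whole data set, and Acsl1 was not analysed here. The 39 genes fall into 4 of the carnitine shuttle, 10 of mitochondrial beta-oxidation, 3 of electron transfer, 9 of the peroxisome, 1 of ketone body metabolism, 6 of fatty acid uptake and activation, and 6 regulators and targets of the nuclear receptor PPARα.

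Liver RNA of 15 mice was studied, each animal on its own microarray of the type GeneChip Mouse Gene 2.0 ST. In 6 mice the operation was Roux-en-Y gastric bypass (RYGB), which joins a small stomach pouch directly to the jejunum. The other mice had a sham operation and were either matched in body weight to the bypass group (BWm, 4 arrays) or fed ad libitum (Sham AL, 5 arrays). All groups shared the rest of the model. They were male ApoE3L.CETP mice, which carry human ApoE*3Leiden and CETP transgenes that make their blood lipids more like those of humans, and the controls carried them too. All received a diet of 60% fat and 0.25% cholesterol for 6 weeks before the operation, were single housed after it and were killed 20 days later. The age label reads 9 to 12 weeks, and the protocol gives 17 to 20 weeks at the tolerance tests on this diet before the operation. Whether the mice were fed or fasted at death is not given in the sources used here. All values below are log2 signals, on which a difference of 1 is a doubling, and signals are compared between groups within a gene and never between genes.

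A fatty acid enters the hepatocyte through carriers, is coupled to coenzyme A, and reaches the mitochondrial matrix as an acylcarnitine through Cpt1a, Slc25a20 and Cpt2. Beta-oxidation then shortens it in repeated cycles, and its electrons reach the respiratory chain through the electron transfer flavoprotein. Very long and branched fatty acids are first shortened in peroxisomes. In fasting the liver turns the acetyl groups into ketone bodies, and PPARα, which senses fatty acids, switches on many of these genes.

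The arrays were alike in level, with medians between 3.89 and 4.02. The mean of 9 hepatocyte markers lay between 12.15 and 12.32 on the RYGB arrays, between 12.33 and 12.37 on the BWm arrays and between 12.18 and 12.26 on the Sham AL arrays. Sham AL replicate 4 stood apart. The mean of 8 brown fat markers was 7.56 on this array, against 3.64 to 3.97 on the RYGB arrays and 3.63 to 3.89 on the BWm arrays, with a median of 4.05 over the Sham AL arrays. Its brown fat marker Ucp1 measured 11.89, against 3.51 to 4.54 on the other 4 Sham AL arrays, and its means of 6 adipocyte and 7 adrenal cortex markers were 7.55 and 8.63. Brown fat itself expresses many genes of fatty acid oxidation, and counts of called genes that differed without this array are given both ways. In whole liver, fewer cells of a type and less RNA per cell cannot be told apart. The means of 7 Kupffer cell markers lay between 7.61 and 8.05 on the RYGB arrays, between 7.24 and 8.07 on the BWm arrays and between 7.09 and 7.76 on the Sham AL arrays, and their part in the results was not tested.

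Against weight-matched sham mice, bypass livers had lower levels of peroxisomal genes (Acaa1b, Ehhadh, Eci2 and Pex11a), of the carnitine carrier Slc25a20, of the very long chain acyl-CoA synthetase Slc27a2, and of Angptl4, Ppargc1a and Adipor2. These 9 of 39 genes were lower by limma, and 1, Acsl4, was higher. Over all genes, 2.34% were called lower and 4.02% higher in this comparison. The median log2 fold change of the 39 genes was -0.3, against 0 for all genes, and 34 of the 39 lay below 0. On every RYGB array 13 of the 39 (33.3%) lay below every BWm array, against 2.91% of all genes. Without Sham AL replicate 4, which enters this comparison through the shared estimate of the spread, 11 were lower and 1 higher, against 2.6% and 4.36% of all genes. The 2 genes this added were Slc27a1 and Pdk4. Without BWm replicate 2 or 3 the count of lower genes was 5, and without RYGB replicate 2, 4 or 5 or BWm replicate 2, 3 or 4 the count of higher genes was 0.

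Against freely fed sham mice fewer genes differed. Acaa1b, Pex11a, Adipor2 and the mitochondrial dehydrogenase Hadh were lower after bypass, and Acsl4 was higher, with 0.442% and 0.938% of all genes called lower and higher. The median over the 39 genes was -0.17, against 0 for all genes, and 32 lay below 0. On every RYGB array 3 of the 39 (7.69%) lay below every Sham AL array, against 0.812% of all genes. Without Sham AL replicate 4, 4 were lower and 2 higher, against 0.523% and 0.911% of all genes: Hadh was no longer called, Vnn1 was called lower and Abcd2 higher. With the median of each array subtracted, 2 were lower and 1 higher over all arrays. The count of 4 lower genes also became 2 without RYGB replicate 1, 2, 3, 4 or 6, or without Sham AL replicate 1, 2, 3 or 5.

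Weight matching alone, as BWm against Sham AL, went with higher levels of Ehhadh, Angptl4 and Ppargc1a, and 0 of the 39 genes were called lower, against 1.53% and 1.3% of all genes higher and lower. At an unadjusted p under 0.05, limma gave 8 genes higher and 4 lower, and the methods' one-way ANOVA at the authors' threshold gave 3 higher and 1 lower. The shares of all genes higher and lower at these thresholds were not counted. The median was 0.09, against -0.01 for all genes, and 29 of the 39 lay above 0. On every BWm array 7 of the 39 (17.9%) lay above every Sham AL array, against 3.46% of all genes. Without Sham AL replicate 4, 4 were called higher and 0 lower, against 1.16% and 1.09% of all genes, with Pdk4 as the gene added, and limma gave 11 higher and 4 lower at an unadjusted p under 0.05. Without Sham AL replicate 1, 1 gene was called lower. The comparisons share groups: the BWm arrays enter both this one and that with RYGB. BWm had the highest group mean in 27 of the 39 genes and RYGB the lowest in 29, and both held in 22. How often these orders occurred over all genes was not counted.

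**Figure D1:**
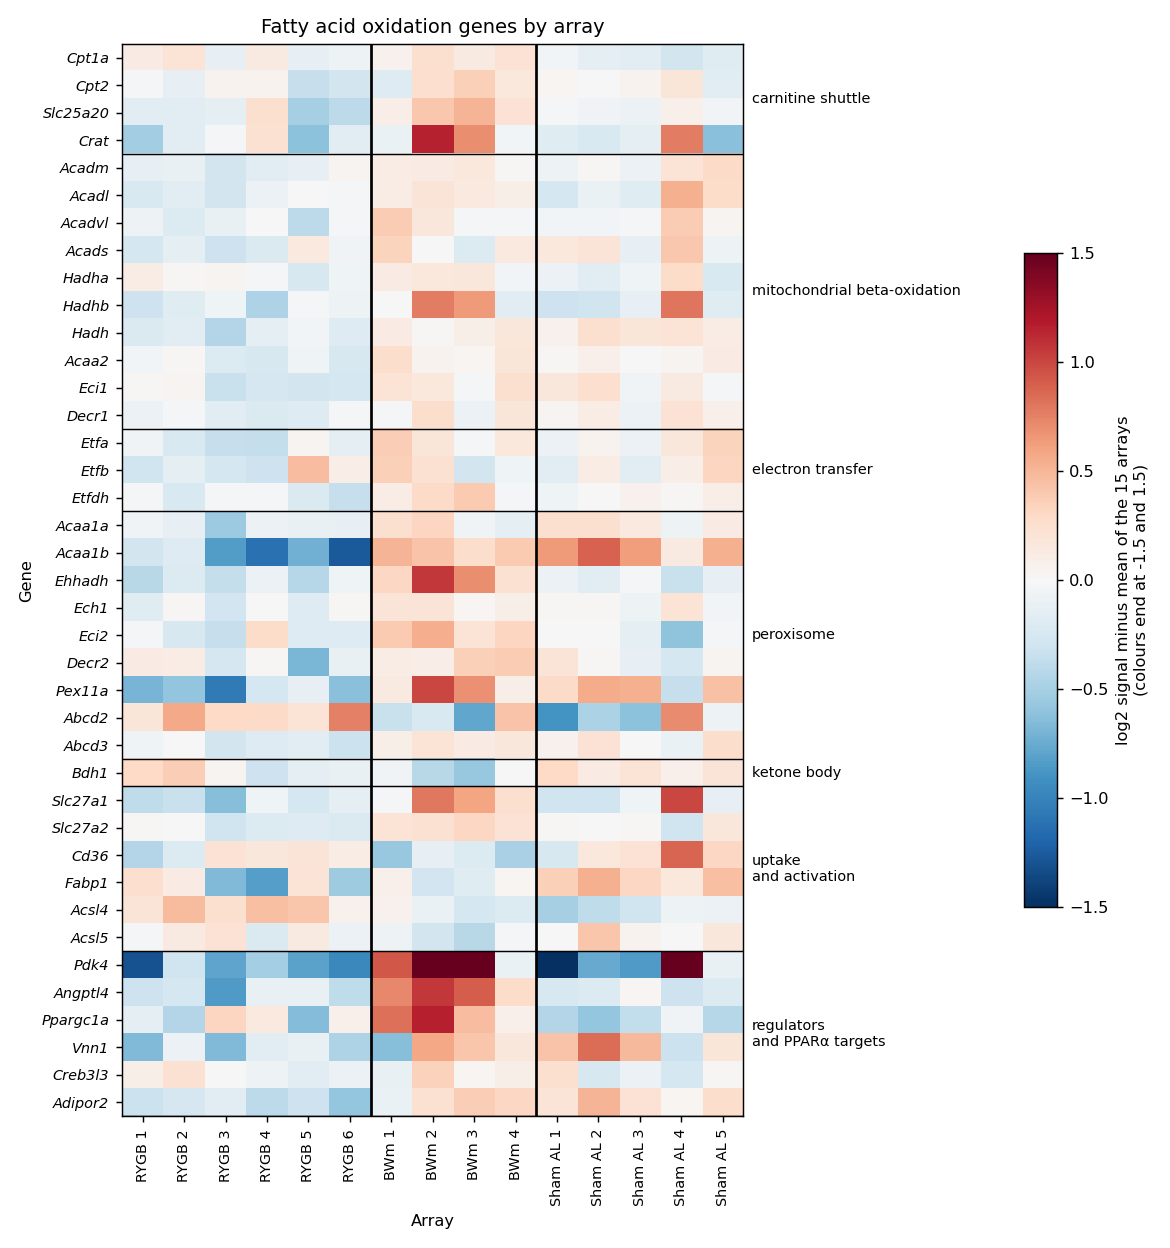
Log2 signal of each of the 39 measured genes (rows, by role) on each of the 15 arrays (columns, RYGB, BWm and Sham AL), as the difference from the gene's mean over the 15 arrays. RYGB arrays are mostly below the mean (blue), BWm arrays mostly above it (red), and Sham AL replicate 4 differs from its group in Pdk4, Slc27a1, Crat, Hadhb and Abcd2.

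**Figure D2:**
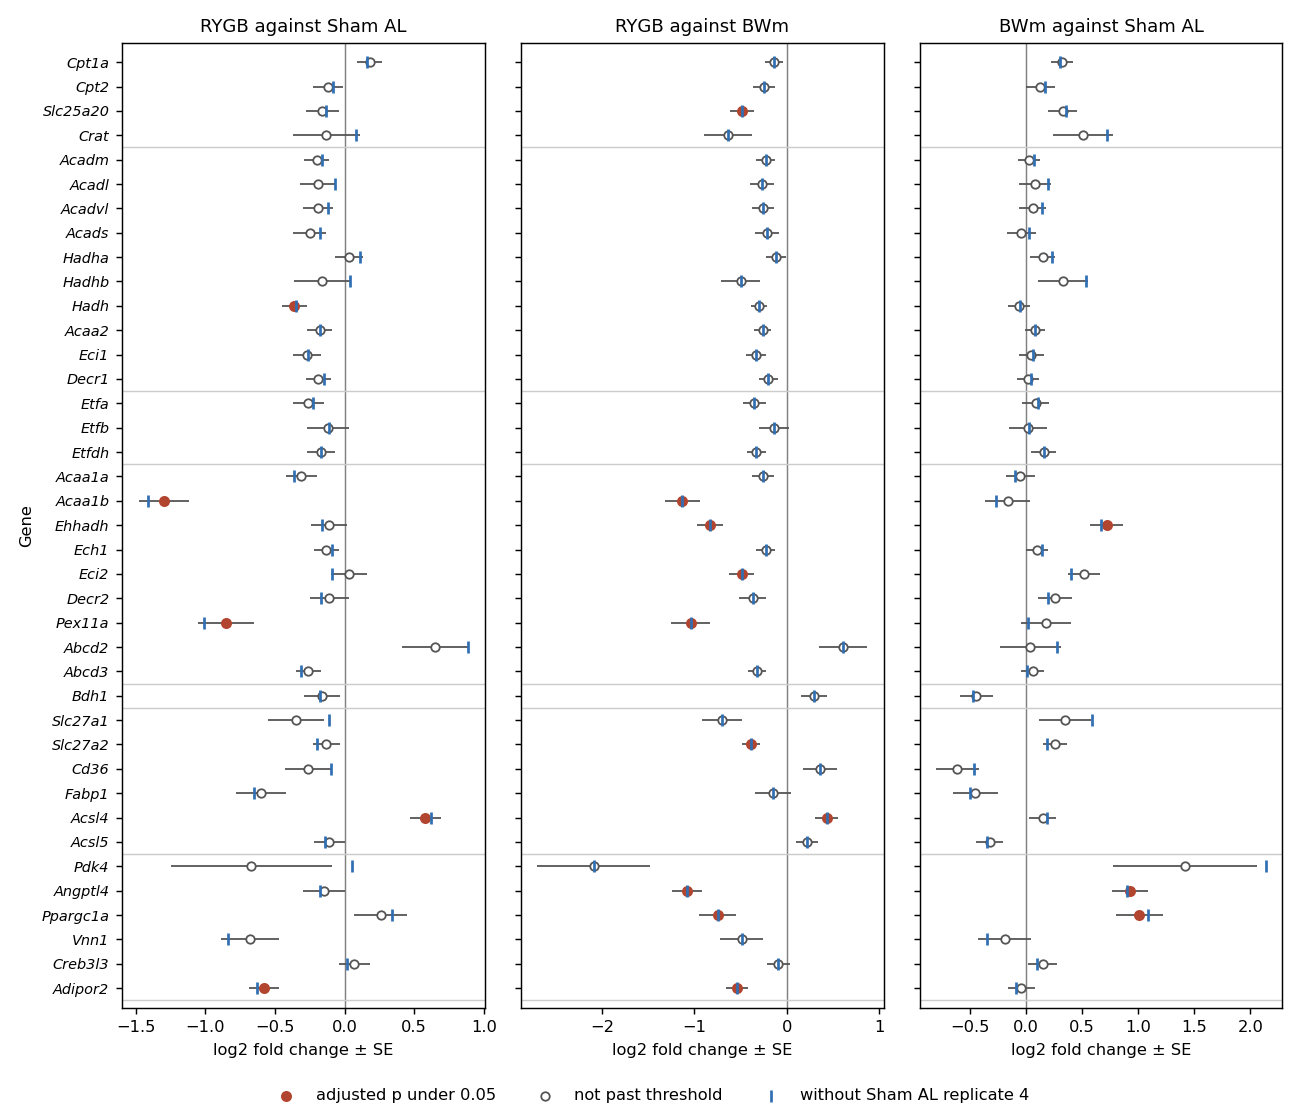
Log2 fold change with its standard error for the 39 genes (rows) in RYGB against Sham AL, RYGB against BWm and BWm against Sham AL (panels). Filled points passed an adjusted p of 0.05 over all 22180 genes, 5, 10 and 3 in the order of the panels, and blue ticks give the value without Sham AL replicate 4.

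Uptake and activation is the first step, and its 6 genes had no common direction. The median of the 6 genes was 0.03 in RYGB against BWm, -0.19 in RYGB against Sham AL and -0.09 in BWm against Sham AL. In RYGB against BWm 1 was lower and 1 higher, and without Sham AL replicate 4, 2 were lower and 1 higher. Acsl4, an acyl-CoA synthetase that prefers arachidonic acid, was the 1 gene of the list that was higher after bypass over all 15 arrays. It measured 8.57, 8.83 and 8.98 (lowest, median and highest) on the 6 RYGB arrays, 8.56, 8.4, 8.24 and 8.3 on the BWm arrays, and 8, 8.12, 8.2, 8.42 and 8.41 on the Sham AL arrays. Every RYGB array lay above every array of both sham groups. The difference was 0.58 ± 0.11 (SE) against Sham AL (1.49-fold, adjusted p = 0.0111) and 0.43 ± 0.12 against BWm (1.35-fold, adjusted p = 0.0318). Leaving out RYGB replicate 2, 4 or 5 or BWm replicate 2, 3 or 4 ended the call against BWm (highest adjusted p = 0.116), as did subtracting the array medians.

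Slc27a2, a very long chain acyl-CoA synthetase that is also known as the fatty acid transport protein FATP2, measured 11.5, 11.6 and 11.82 on the RYGB arrays (lowest, median and highest). It measured 12, 12.03, 12.11 and 12.02 on the BWm arrays, and 11.82, 11.81, 11.82, 11.5 and 11.97 on the Sham AL arrays. All RYGB arrays lay below all BWm arrays and overlapped the Sham AL arrays. It was 1.31-fold lower in RYGB than in BWm (log2 fold change -0.39 ± 0.1 SE, adjusted p = 0.0282). Leaving out RYGB replicate 3, 4, 5 or 6 or any single BWm array ended this call (highest adjusted p = 0.0891), as did quantile normalization and the replicate block. The log2 fold change was -0.13 ± 0.1 in RYGB against Sham AL and 0.26 ± 0.11 in BWm against Sham AL, and neither was called.

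Slc27a1, the fatty acid transport protein FATP1 best known from fat and muscle, measured 5.23, 5.58 and 5.8 on the RYGB arrays (lowest, median and highest), 5.85, 6.66, 6.46 and 6.11 on the BWm arrays, and 5.57, 5.57, 5.81, 6.87 and 5.75 on the Sham AL arrays. The RYGB arrays lay below all BWm arrays, and the highest value of all was that of Sham AL replicate 4. Its log2 fold change in RYGB against BWm was -0.7 ± 0.22 (adjusted p = 0.0648), and -0.7 ± 0.15 (adjusted p = 0.00564) without that array. The surface receptor Cd36, which binds long chain fatty acids, measured 9, 9.58 and 9.65 on the RYGB arrays, 8.87, 9.31, 9.23 and 8.95 on the BWm arrays, and 9.2, 9.6, 9.65, 10.31 and 9.75 on the Sham AL arrays. Its log2 fold change was -0.61 ± 0.19 in BWm against Sham AL (adjusted p = 0.089) and -0.46 ± 0.16 without Sham AL replicate 4, with overlap between all groups.

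Fabp1, the abundant fatty acid binding protein of the hepatocyte cytosol, measured 10.31, 10.92 and 11.38 on the RYGB arrays, 11.21, 10.85, 10.95 and 11.16 on the BWm arrays, and 11.49, 11.66, 11.44, 11.29 and 11.58 on the Sham AL arrays. Both the bypass and the weight-matched arrays were mostly below the freely fed ones, and 3 of the 6 RYGB arrays were the lowest. The log2 fold change was -0.6 ± 0.18 in RYGB against Sham AL (adjusted p = 0.128) and -0.45 ± 0.2 in BWm against Sham AL (adjusted p = 0.284). Acsl5, a further acyl-CoA synthetase, stayed within -0.32 and 0.22 in the 3 comparisons and was not called. Of 13 further genes of uptake and activation, 1 was lower in RYGB against BWm over all arrays, and 1 was lower and 2 higher without Sham AL replicate 4. The higher ones were the fatty acid binding protein gene Fabp5 (0.48 ± 0.13, adjusted p = 0.0302) and the lipoprotein lipase gene Lpl (0.93 ± 0.21, adjusted p = 0.00995). The lower one was Slc27a5, the bile acid and very long chain acyl-CoA ligase, at -0.68 ± 0.13 (adjusted p = 0.00319). In RYGB against Sham AL, Fabp2, the fatty acid binding protein best known from the intestine, was the 1 of the 13 that was lower, at -1.37 ± 0.27 (adjusted p = 0.0146, and 0.0584 without Sham AL replicate 2).

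In the carnitine shuttle, 1 of 4 genes passed the threshold, and all 4 had a log2 fold change below 0 in RYGB against BWm. Slc25a20, which exchanges acylcarnitine for carnitine across the inner membrane, measured 8.53, 8.86 and 9.27 on the RYGB arrays (lowest, median and highest), 9.13, 9.43, 9.54 and 9.25 on the BWm arrays, and 9, 8.98, 8.94, 9.11 and 8.99 on the Sham AL arrays. Every BWm array lay above every Sham AL array, while 1 RYGB array reached into the BWm range. It was 1.41-fold lower in RYGB than in BWm (log2 fold change -0.49 ± 0.13, adjusted p = 0.0245), and leaving out RYGB replicate 5 or 6 or BWm replicate 2 or 3 ended the call (highest adjusted p = 0.102).

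Cpt1a, the malonyl-CoA-sensitive entry step of mitochondrial oxidation, measured 10.57, 10.72 and 10.9 on the RYGB arrays, 10.76, 10.93, 10.82 and 10.91 on the BWm arrays, and 10.65, 10.54, 10.53, 10.42 and 10.51 on the Sham AL arrays. The BWm arrays lay above all Sham AL arrays and the RYGB arrays overlapped both groups. On the log2 scale it differed by 0.32 ± 0.1 in BWm against Sham AL (adjusted p = 0.0972), 0.18 ± 0.09 in RYGB against Sham AL and -0.14 ± 0.1 in RYGB against BWm. The 95% interval of the last ran from -0.34 to 0.06. Cpt2, which re-forms the acyl-CoA inside, had a log2 fold change of -0.25 ± 0.12 in RYGB against BWm. Crat, a carnitine acetyltransferase, had one of -0.64 ± 0.26 (adjusted p = 0.178). Its signal of 8.85 on Sham AL replicate 4 compared with 7.46 to 7.94 on the other Sham AL arrays. In the same step outside the 39 genes, Slc22a5, which carries carnitine into the cell, measured 6.3, 6.51 and 6.75 on the RYGB arrays, 7.09, 8.33, 7.44 and 7.13 on the BWm arrays, and 6.44, 6.36, 6.29, 6.47 and 7.01 on the Sham AL arrays. All BWm arrays lay above the arrays of both other groups, and its log2 fold change was -0.99 ± 0.2 in RYGB against BWm (adjusted p = 0.00484) and 0.98 ± 0.21 in BWm against Sham AL (adjusted p = 0.0145). The last call ended when the groups compared were fitted alone (adjusted p = 0.056).

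The 10 genes of mitochondrial beta-oxidation moved little. All 10 had a log2 fold change below 0 in RYGB against BWm, from -0.5 to -0.12 with a median of -0.26, but 0 passed the threshold. The value of -0.5 was that of Hadhb, whose signal was dim, and the next lowest was -0.33 for Eci1. At an unadjusted p under 0.05, limma gave 6 of the 10 as lower and 0 as higher, and the share of all genes at this threshold was not counted. The methods' one-way ANOVA gave 0 at the authors' threshold and 1 after Benjamini-Hochberg adjustment. In RYGB against Sham AL, 9 of 10 lay below 0 (median -0.19) and 1 was called, and in BWm against Sham AL the median was 0.06. Limma called 0 of the 10 in that last comparison, also at an unadjusted p under 0.05, and the methods' one-way ANOVA called 0. Without Sham AL replicate 4, limma called 0 of the 10 against Sham AL in either comparison, with 2 lower in RYGB and 2 higher in BWm at an unadjusted p under 0.05.

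Hadh, the short chain 3-hydroxyacyl-CoA dehydrogenase, was the gene called against Sham AL. It measured 10.7, 10.96 and 11.09 on the RYGB arrays (lowest, median and highest), 11.26, 11.16, 11.22 and 11.31 on the BWm arrays, and 11.2, 11.38, 11.32, 11.34 and 11.25 on the Sham AL arrays. Every RYGB array lay below every array of both sham groups. The log2 fold change was -0.36 ± 0.09 against Sham AL (1.29-fold lower, adjusted p = 0.0438) and -0.3 ± 0.09 against BWm (adjusted p = 0.059). The call lay close to the threshold: it was kept when RYGB replicate 5 or BWm replicate 4 was left out and ended when any other array was left out (highest adjusted p = 0.127). Acaa2, the mitochondrial thiolase of the last step, measured 10.52, 10.62 and 10.78 on the RYGB arrays, 11.02, 10.81, 10.79 and 10.94 on the BWm arrays, and 10.78, 10.83, 10.76, 10.8 and 10.88 on the Sham AL arrays. Its RYGB arrays lay just below all BWm arrays, at -0.26 ± 0.09 (adjusted p = 0.113).

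The acyl-CoA dehydrogenases, which take the first electrons, lay close together. In RYGB against BWm the log2 fold change of Acadm (medium chain) was -0.23 ± 0.1, that of Acadl (long chain) -0.27 ± 0.13, that of Acadvl (very long chain) -0.26 ± 0.12 and that of Acads (short chain) -0.21 ± 0.13. None of these 4 passed the threshold, with adjusted p between 0.213 and 0.439. Hadha, the alpha subunit of the trifunctional protein, had the smallest value of the 10, with a 95% interval from -0.35 to 0.1. The cluster of its partner Hadhb had a signal of 3.08 to 3.52 on the RYGB arrays, 3.37 to 4.31 on the BWm arrays and 3.23 to 4.35 on the Sham AL arrays. It was the 1 gene of the 39 whose mean lay below the lowest array median, so its values lay near the dimmest signals of the arrays. The isomerase Eci1 and the dienoyl-CoA reductase Decr1, which handle unsaturated fatty acids, had values of -0.33 ± 0.11 and -0.2 ± 0.1.

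Etfa and Etfb, the subunits of the electron transfer flavoprotein, measured -0.35 ± 0.12 (adjusted p = 0.0903) and -0.14 ± 0.16 in RYGB against BWm, and Etfdh, which hands the electrons to ubiquinone, measured -0.33 ± 0.1 (adjusted p = 0.0664), as log2 fold changes. Limma called 0 of the 3, and 2 were lower at an unadjusted p under 0.05, a threshold at which all genes were not counted. The methods' one-way ANOVA called 0 of them. The count depended on which genes were tested together. When only genes with a mean above the median of all genes were tested, 17 of the 38 genes that passed this filter were lower in RYGB against BWm, in place of 9 of 39. The share called lower over all genes that passed the filter was not counted, so the rise cannot be set against it. The 8 genes added were Hadh (adjusted p = 0.0219), Acaa2 (0.0469), Eci1 (0.0365), Etfa (0.0429), Etfdh (0.0286), Abcd3 (0.0261), Slc27a1 (0.0364) and Pdk4 (0.0302). Of 13 further genes listed with the mitochondrial steps, 3 were lower in RYGB against BWm. They were Slc22a5, which carries carnitine into the cell, the acyl-CoA dehydrogenase family member Acad10 (-0.65 ± 0.14, adjusted p = 0.00948) and the branched chain dehydrogenase Acadsb (-0.42 ± 0.12, adjusted p = 0.0371). The Acadsb call ended in 8 of the 15 fits that left out 1 array. In RYGB against Sham AL the 1 called was Hsd17b10, a short chain dehydrogenase, at -0.51 ± 0.11 (adjusted p = 0.025). Leaving out Sham AL replicate 2, 3 or 5 or RYGB replicate 2 or 6 ended this call (highest adjusted p = 0.0821), as did subtracting the array medians (0.0514) and fitting the groups compared alone (0.054).

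In the peroxisome, 4 of 9 genes were lower in RYGB against BWm, 2 of 9 in RYGB against Sham AL, and 1 was higher in BWm against Sham AL. Abcd2 was also called without Sham AL replicate 4, as higher in RYGB against Sham AL. The list median in RYGB against BWm was -0.37, beside -0.26 for the 10 mitochondrial genes, and 8 of the 9 lay below 0. The difference between the lists was not tested. Acaa1b, a peroxisomal thiolase that rodents carry beside Acaa1a, measured 8.58, 9.06 and 9.64 on the RYGB arrays (lowest, median and highest). It measured 10.35, 10.26, 10.1 and 10.23 on the BWm arrays, and 10.47, 10.72, 10.46, 9.97 and 10.37 on the Sham AL arrays. Every RYGB array lay below every array of both sham groups, which overlapped each other. It was 2.46-fold lower than in Sham AL (log2 fold change -1.3 ± 0.18, adjusted p = 0.000901) and 2.19-fold lower than in BWm (-1.13 ± 0.19, adjusted p = 0.00103), and both calls held when any 1 array was left out. The related gene Acaa1a measured 6.58, 7.01 and 7.08 on the RYGB arrays, 7.37, 7.45, 7.08 and 6.98 on the BWm arrays, and 7.37, 7.37, 7.27, 7.05 and 7.25 on the Sham AL arrays. Its groups overlapped, and its log2 fold changes of -0.31 ± 0.11 against Sham AL (adjusted p = 0.229) and -0.26 ± 0.12 against BWm were not called. The genes are close copies, so their probes may share signal.

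Pex11a, which drives the division of peroxisomes, measured 7.13, 7.57 and 8.06 on the RYGB arrays, 8.32, 9.19, 8.87 and 8.28 on the BWm arrays, and 8.47, 8.74, 8.72, 7.84 and 8.63 on the Sham AL arrays. All RYGB arrays lay below all BWm arrays and below all Sham AL arrays but replicate 4. It was 2.05-fold lower than in BWm (log2 fold change -1.04 ± 0.21, adjusted p = 0.00549), and this held when any 1 array was left out. Against Sham AL it was 1.81-fold lower (-0.85 ± 0.2, adjusted p = 0.0408). Without Sham AL replicate 4 this became -1.01 ± 0.18 (adjusted p = 0.00751), whereas leaving out RYGB replicate 1, 2, 3, 4 or 6 or another Sham AL array ended the call (highest adjusted p = 0.125).

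Ehhadh, the bifunctional hydratase and dehydrogenase of peroxisomal oxidation and a classical PPARα target, showed another order. It measured 9.61, 9.75 and 9.97 on the RYGB arrays, 10.34, 11.09, 10.73 and 10.26 on the BWm arrays, and 9.94, 9.86, 10.02, 9.7 and 9.91 on the Sham AL arrays. The BWm arrays lay above all others, and the RYGB and Sham AL arrays overlapped. Its level in BWm was 1.65-fold above Sham AL (log2 fold change 0.72 ± 0.15, adjusted p = 0.0121, and 0.0513 without BWm replicate 3). Its level in RYGB was 1.78-fold below BWm (-0.83 ± 0.14, adjusted p = 0.0013), and between RYGB and Sham AL it was -0.11 ± 0.13, with a 95% interval from -0.39 to 0.17. Eci2, a peroxisomal and mitochondrial enoyl-CoA isomerase, was likewise highest in BWm, while its mean was 8.72 in RYGB and 8.7 in Sham AL. It measured 8.5, 8.65 and 9.12 on the RYGB arrays, 9.24, 9.39, 9.05 and 9.16 on the BWm arrays, and 8.85, 8.85, 8.71, 8.24 and 8.81 on the Sham AL arrays. All BWm arrays lay above all Sham AL arrays and 1 RYGB array reached into the BWm range. It was 1.4-fold lower in RYGB than in BWm (-0.49 ± 0.14, adjusted p = 0.0406), and leaving out RYGB replicate 2, 3, 5 or 6, Sham AL replicate 3 or any single BWm array ended the call (highest adjusted p = 0.135).

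The ABC transporters of the peroxisome, which import fatty acyl-CoA, differed from each other. Abcd2 measured 7.39, 7.5 and 7.96 on the RYGB arrays, 6.87, 6.98, 6.43 and 7.63 on the BWm arrays, and 6.31, 6.73, 6.59, 7.91 and 7.13 on the Sham AL arrays. All 6 RYGB values exceeded those of the Sham AL arrays other than replicate 4, and of all BWm arrays but 1. Its log2 fold change in RYGB against Sham AL was 0.65 ± 0.24 (adjusted p = 0.228), and it was called without replicate 4, at 0.89 ± 0.2 (adjusted p = 0.0257). Abcd3, the most abundant protein of the peroxisomal membrane in liver, measured 10.18, 10.32 and 10.5 on the RYGB arrays and 10.6, 10.71, 10.63 and 10.68 on the BWm arrays. These ranges did not overlap, and its log2 fold change was -0.32 ± 0.1 (adjusted p = 0.0642). The hydratase and isomerase gene Ech1 (-0.23 ± 0.1) and the peroxisomal reductase gene Decr2 (-0.37 ± 0.15) were not called. Of 20 further genes listed with the peroxisome, 3 were lower in RYGB against BWm and 2 were higher in BWm against Sham AL. When Sham AL replicate 4 was left out, 1 was higher in BWm against Sham AL, and Ephx2 was lower in RYGB against Sham AL (-0.49 ± 0.12, adjusted p = 0.0377). Hacl1, the lyase of alpha-oxidation, was in both groups, at -1.03 ± 0.22 in RYGB against BWm (adjusted p = 0.00757) and 1.33 ± 0.23 in BWm against Sham AL (adjusted p = 0.00358). Abcd4 (-0.58 ± 0.12) and the epoxide hydrolase gene Ephx2 (-0.55 ± 0.12) were the others lower after bypass, and the peroxisomal membrane protein gene Pxmp4 (0.62 ± 0.15) was the other gene higher in BWm. Where the products of these listed genes act was not tested, and Abcd4 is not one of the acyl-CoA importers above. The Pxmp4 call ended without Sham AL replicate 3, 4 or 5 or BWm replicate 2 or 3 (highest adjusted p = 0.136).

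**Figure D3:**
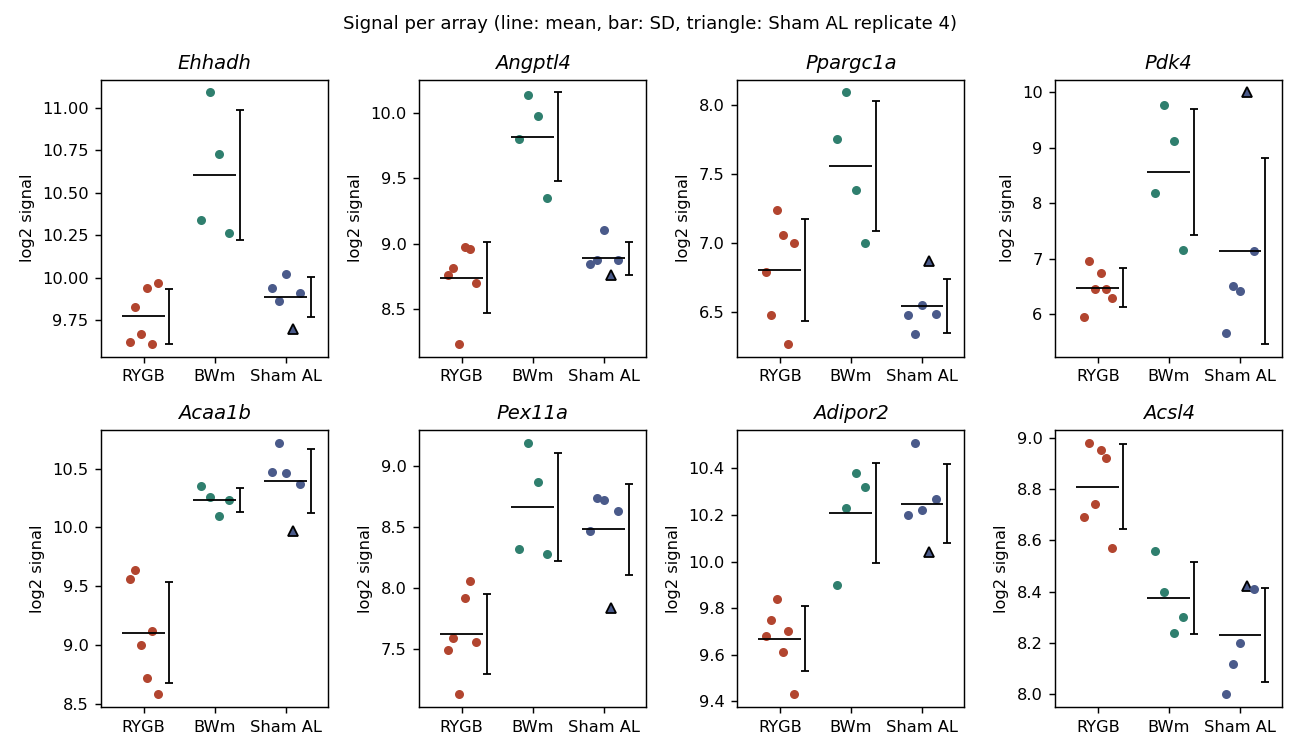
Log2 signal of 8 genes on each array, with RYGB, BWm and Sham AL side by side, the group mean as a line and the SD as a bar. Ehhadh, Angptl4, Ppargc1a and Pdk4 have their highest group mean in BWm, and Sham AL replicate 4 (triangle) has the highest single Pdk4 signal. Acaa1b and Adipor2 are lowest on all 6 RYGB arrays, Pex11a is lowest on most of them, and Acsl4 is highest.

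Promoter sequence is shown for genes that moved together in RYGB against BWm, to set them beside the binding element of PPARα and its partner RXR. That element is a repeat of the half-site AGGTCA with 1 base between the repeats, called DR1. RefSeq promoter windows of the mouse build GRCm38.p6, from 250 bases before to 50 bases after each start, were found for 34 of the 40 listed genes (40 windows). Angptl4, Crat, Acaa2, Decr1, Abcd2 and Vnn1 have none. The exact half-site, searched on both strands, occurred in 7 of the 40 windows (17.5%), against 16.3% of all 32851 windows. An exact DR1, which also counts as a half-site, occurred in 0 of the 40 windows and in 13 of all windows (0.0396%). The windows of Slc27a2 (chr2:126552774-126553073, plus strand), Acaa1b (chr9:119157044-119157343, minus strand) and Ehhadh (chr16:21787785-21788084, minus strand) are printed on the strand of the gene, and capitals mark the half-site on either strand.
Slc27a2: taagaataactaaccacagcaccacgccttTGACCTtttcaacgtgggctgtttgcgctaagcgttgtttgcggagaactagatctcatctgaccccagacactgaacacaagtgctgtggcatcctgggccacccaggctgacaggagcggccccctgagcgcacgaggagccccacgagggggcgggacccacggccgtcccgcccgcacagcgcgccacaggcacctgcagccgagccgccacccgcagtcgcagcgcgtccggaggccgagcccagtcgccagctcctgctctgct
Acaa1b: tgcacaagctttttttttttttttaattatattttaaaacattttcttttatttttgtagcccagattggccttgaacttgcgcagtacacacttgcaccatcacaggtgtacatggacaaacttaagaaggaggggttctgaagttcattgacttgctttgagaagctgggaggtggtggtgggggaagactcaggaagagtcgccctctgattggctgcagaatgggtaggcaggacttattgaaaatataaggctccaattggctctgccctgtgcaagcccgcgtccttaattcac
Ehhadh: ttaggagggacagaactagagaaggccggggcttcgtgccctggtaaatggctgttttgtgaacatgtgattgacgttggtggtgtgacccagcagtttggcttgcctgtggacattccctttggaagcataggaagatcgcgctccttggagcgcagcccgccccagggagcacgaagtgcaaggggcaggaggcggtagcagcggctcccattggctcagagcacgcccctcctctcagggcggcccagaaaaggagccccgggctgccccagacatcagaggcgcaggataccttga
The windows of Acaa1b and Ehhadh hold no exact half-site, and that of Slc27a2 holds 1 on the opposite strand, with its first base at -220 from the start. The half-sites of the other 6 genes are shown on the strand of the gene with up to 10 bases on each side.
Acadm: gTGACCTtcgggctccg
Cd36: ctgcactttaTGACCTgagattttca
Fabp1: cgacaatcacTGACCTatggcctata
Fabp1: caacagtgggTGACCTggcaggcaga
Creb3l3: agtaggggagAGGTCAcacagacccg
Acadvl: ggatcaccctAGGTCAggtagaatac
Cpt1a: gtttccttacTGACCTcctccccgca
Of these 7 genes, Slc27a2 was called lower in RYGB against BWm, and the other 6 were called in no comparison. A match is a stretch of letters and was not tested as a binding site.

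Ketogenesis was covered by few genes. The 1 listed gene was Bdh1, the mitochondrial dehydrogenase that turns acetoacetate into beta-hydroxybutyrate. It measured 7.6, 7.87 and 8.27 on the RYGB arrays (lowest, median and highest), 7.85, 7.49, 7.34 and 7.9 on the BWm arrays, and 8.21, 8.03, 8.11, 7.98 and 8.1 on the Sham AL arrays. All BWm arrays lay below all Sham AL arrays, and the RYGB arrays overlapped both. Its log2 fold change was -0.44 ± 0.15 in BWm against Sham AL (adjusted p = 0.124), 0.29 ± 0.14 in RYGB against BWm (adjusted p = 0.293) and -0.16 ± 0.13 in RYGB against Sham AL, so its order was not that of the oxidation genes and it was not called.

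Of 7 further genes of ketone body metabolism, transport and control, 3 were lower in RYGB against BWm. Acat1, the mitochondrial thiolase that joins acetyl-CoA units at the start of ketogenesis, had a log2 fold change of -0.35 ± 0.13 in RYGB against BWm (adjusted p = 0.122), -0.29 ± 0.12 in RYGB against Sham AL (adjusted p = 0.301) and 0.06 ± 0.13 in BWm against Sham AL, and was not called. Sirt3, the mitochondrial deacetylase, measured 6.77, 7.18 and 7.27 on the RYGB arrays and 7.97, 7.78, 7.33 and 7.64 on the BWm arrays. These ranges did not overlap, and the difference was -0.54 ± 0.13 (adjusted p = 0.0147, and at most 0.065 without BWm replicate 1 or 2). Slc16a7, a monocarboxylate carrier, was lower in RYGB than in BWm (-0.44 ± 0.13, adjusted p = 0.047) and higher in BWm than in Sham AL (0.54 ± 0.13, adjusted p = 0.0337). The last call ended without Sham AL replicate 2, 3 or 4 or BWm replicate 2, 3 or 4 (highest adjusted p = 0.135). Bdh2, a cytosolic dehydrogenase, was lower in RYGB against both BWm (-0.71 ± 0.2) and Sham AL (-0.81 ± 0.18), and each of these calls ended in 8 of the 15 fits that left out 1 array. The Slc16a7 call against BWm ended in 11 of the 15.

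Among the 6 regulators and PPARα targets, 3 were lower in RYGB against BWm, 1 in RYGB against Sham AL, and 2 were higher in BWm against Sham AL. These counts were 4, 2 and 3 without Sham AL replicate 4. Angptl4, a secreted inhibitor of lipoprotein lipase, measured 8.23, 8.78 and 8.97 on the RYGB arrays, 9.8, 10.14, 9.98 and 9.35 on the BWm arrays, and 8.84, 8.87, 9.1, 8.76 and 8.87 on the Sham AL arrays. The BWm arrays lay above all others, and the RYGB and Sham AL arrays overlapped. Its level was 2.11-fold lower in RYGB than in BWm (log2 fold change -1.08 ± 0.16, adjusted p = 0.000342) and 1.9-fold higher in BWm than in Sham AL (0.93 ± 0.16, adjusted p = 0.0038), and both calls held when any 1 array was left out. Between RYGB and Sham AL it was -0.15 ± 0.15, with a 95% interval from -0.46 to 0.15.

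Ppargc1a, the coactivator PGC-1α of fasting and mitochondrial programmes, measured 6.27, 6.9 and 7.24 on the RYGB arrays, 7.75, 8.09, 7.38 and 7 on the BWm arrays, and 6.48, 6.34, 6.55, 6.87 and 6.49 on the Sham AL arrays. All BWm arrays lay above all Sham AL arrays, and the lowest of them lay within the RYGB range. It was 2.01-fold higher in BWm than in Sham AL (1.01 ± 0.21, adjusted p = 0.013, and 0.0628 without BWm replicate 2). In RYGB it was 1.68-fold lower than in BWm (-0.75 ± 0.2, adjusted p = 0.0319), and leaving out RYGB replicate 2 or 5 or BWm replicate 1, 2 or 3 ended the call (highest adjusted p = 0.136).

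Pdk4, the kinase that shuts pyruvate dehydrogenase when fat is burned, measured 5.95, 6.46 and 6.96 on the RYGB arrays, 8.18, 9.78, 9.13 and 7.16 on the BWm arrays, and 5.66, 6.5, 6.41, 10 and 7.14 on the Sham AL arrays. The BWm arrays lay above all RYGB arrays and above all Sham AL arrays but replicate 4, which was the highest of the 15. Over all arrays the log2 fold changes of -2.09 ± 0.61 in RYGB against BWm (adjusted p = 0.0501), 1.42 ± 0.64 in BWm against Sham AL (adjusted p = 0.291) and -0.67 ± 0.58 in RYGB against Sham AL were not called. Without replicate 4 Pdk4 was lower in RYGB than in BWm (-2.09 ± 0.37, adjusted p = 0.00172) and higher in BWm than in Sham AL (2.14 ± 0.41, adjusted p = 0.00845), and it was at 0.05 ± 0.37 in RYGB against Sham AL.

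Adipor2, a receptor of adiponectin, was lower after bypass than in either sham group. It measured 9.43, 9.69 and 9.84 on the RYGB arrays, 9.9, 10.23, 10.38 and 10.32 on the BWm arrays, and 10.2, 10.51, 10.22, 10.04 and 10.27 on the Sham AL arrays. Every RYGB array lay below every sham array, and the sham groups overlapped. The log2 fold change was -0.58 ± 0.11 against Sham AL (1.49-fold, adjusted p = 0.012) and -0.54 ± 0.12 against BWm (1.45-fold, adjusted p = 0.00884), and both calls held when any 1 array was left out. Vnn1, a pantetheinase and PPARα target, measured 7.49, 7.84 and 8.07 on the RYGB arrays, 7.52, 8.74, 8.57 and 8.33 on the BWm arrays, and 8.59, 9, 8.64, 7.83 and 8.34 on the Sham AL arrays. The RYGB arrays lay below all Sham AL arrays but replicate 4. Its log2 fold change against Sham AL was -0.68 ± 0.21 (adjusted p = 0.148), and -0.84 ± 0.2 (adjusted p = 0.0428) without that array. Creb3l3, a liver transcription factor of the fasting response, stayed between -0.09 and 0.15 in the 3 comparisons.

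Sham AL replicate 4 differed from the other 4 Sham AL arrays in both directions. It was higher in Pdk4 (10, against a mean of 6.43 on the others), Abcd2 (7.91 against 6.69), Slc27a1 (6.87 against 5.68), Crat (8.85 against 7.79), Hadhb (4.35 against 3.31) and Cd36 (10.31 against 9.55). It was lower in Vnn1 (7.83 against 8.64), Pex11a (7.84 against 8.64) and Eci2 (8.24 against 8.81).

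**Figure D4:**
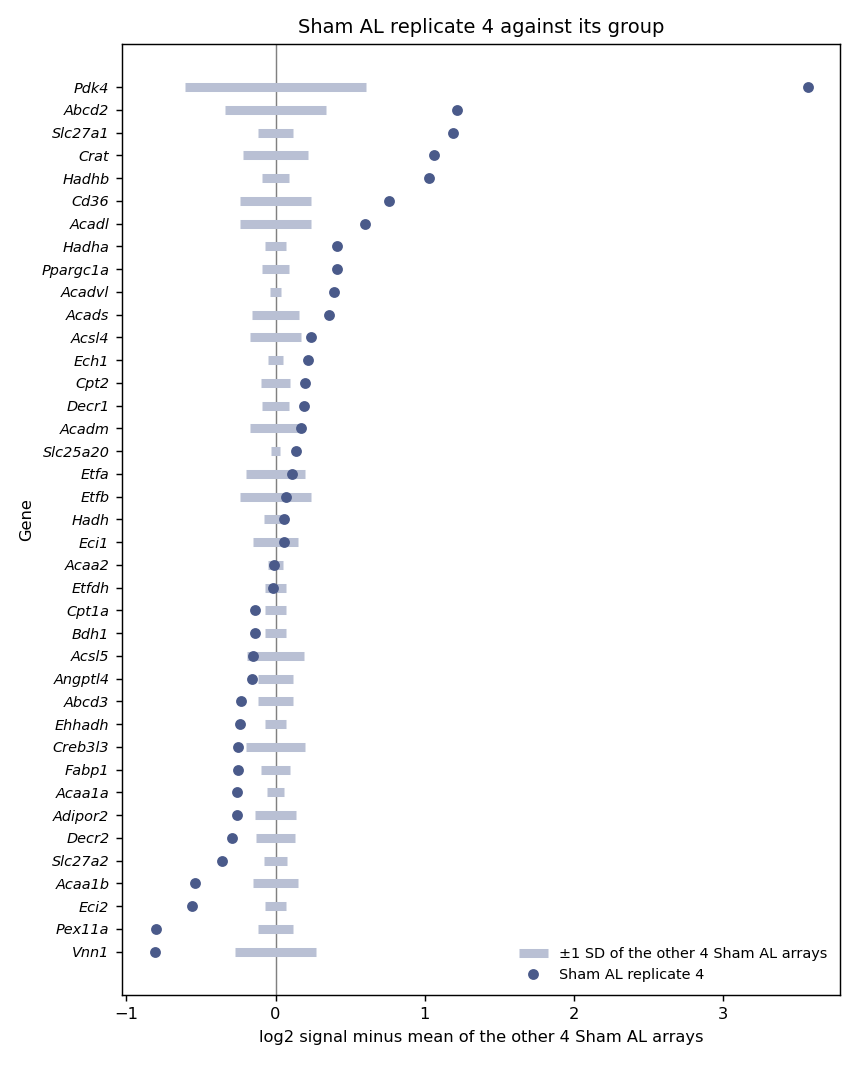
Log2 signal of each of the 39 genes on Sham AL replicate 4 minus the mean of the other 4 Sham AL arrays (points), beside 1 SD of those 4 arrays (bars). Pdk4, Abcd2, Slc27a1, Crat and Hadhb lie over 1 log2 unit above the others, and Vnn1 and Pex11a lie lowest.

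The gene of the receptor, Ppara, was also lower in RYGB than in BWm. It measured 8.28, 8.5 and 8.95 on the RYGB arrays (lowest, median and highest), 9, 9.15, 9.14 and 9.13 on the BWm arrays, and 9.02, 8.83, 8.92, 8.61 and 8.95 on the Sham AL arrays. All RYGB arrays lay below all BWm arrays and overlapped the Sham AL arrays. It was 1.49-fold lower in RYGB than in BWm (log2 fold change -0.57 ± 0.12, adjusted p = 0.00834). This call held when any 1 array was left out and ended with the replicate block (adjusted p = 0.0541). Against Sham AL, Ppara was at -0.33 ± 0.12 (adjusted p = 0.205). Of 16 further regulators, 5 were lower and 1 higher in RYGB against BWm. Besides Ppara, the lower ones were Foxo1, a factor of fasting gene control (-0.81 ± 0.12), the kinase gene Pdk1 (-0.74 ± 0.13), the coactivator gene Ppargc1b (-0.48 ± 0.12) and the deacetylase gene Sirt1 (-0.41 ± 0.11). The last 2 calls ended in 4 and 6 of the 15 fits that left out 1 array. Lpin1, a phosphatidate phosphatase and coactivator gene, was also lower without Sham AL replicate 4 (-1.14 ± 0.33, adjusted p = 0.0412). Pdk1 was called lower in RYGB against Sham AL too, a call that ended without Sham AL replicate 2 (adjusted p = 0.0606). Averaging the clusters of a gene and the replicate block also ended it. Over all settings its log2 fold change ran from -0.7 to -0.32, with a highest adjusted p of 0.187. Foxo1 and Sirt1 were called higher in BWm against Sham AL. The Foxo1 call ended without BWm replicate 3 (adjusted p = 0.0509), and the Sirt1 call ended in 3 of the 15 fits. Pparg, the related receptor of fat storage, ran the other way. It measured 6.54, 6.79 and 7.03 on the RYGB arrays, 6.01, 5.61, 5.77 and 6.51 on the BWm arrays, and 6.96, 7.82, 7.14, 7.67 and 7.24 on the Sham AL arrays. It was higher in RYGB than in BWm (0.81 ± 0.18, adjusted p = 0.00935) and lower in BWm than in Sham AL (-1.39 ± 0.19, adjusted p = 0.00103), with no overlap in either pair.

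Of 15 further PPARα targets, 7 were lower and 1 higher in RYGB against BWm, 5 were higher in BWm against Sham AL, and 2 were higher and 1 lower in RYGB against Sham AL. The medians were -0.7, 0.79 and 0.02 in that order, against 0, -0.01 and 0 over all genes. The thioesterase gene Acot1, whose product frees fatty acids from coenzyme A, measured 5.61, 5.87 and 6.48 on the RYGB arrays, 7.63, 9.54, 8.75 and 7.27 on the BWm arrays, and 6.3, 5.92, 5.66, 5.12 and 6.26 on the Sham AL arrays. The BWm arrays lay above all others. It was 5.18-fold lower in RYGB than in BWm (-2.37 ± 0.34, adjusted p = 0.000342) and 5.44-fold higher in BWm than in Sham AL (2.44 ± 0.35, adjusted p = 0.00157). Acot3, Acot4 and the retinol saturase gene Retsat were also called in both, at -1.8 ± 0.31, -0.94 ± 0.21 and -1.14 ± 0.12 in RYGB against BWm and 2.1 ± 0.32, 1.34 ± 0.22 and 0.99 ± 0.12 in BWm against Sham AL. Cyp4a14, a fatty acid omega-hydroxylase, was higher in BWm than in Sham AL (1.99 ± 0.38, adjusted p = 0.00763), and in RYGB it was at 1.29 ± 0.34 against Sham AL (adjusted p = 0.0756). Acot and Cyp4a genes have near-identical copies that may share probe signal.

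Fgf21, a fasting hormone of the liver, had another order of group means than Acot1. It measured 6.15, 6.89 and 7.6 on the RYGB arrays, 5.08, 6.05, 5.92 and 5.04 on the BWm arrays, and 5.36, 5.27, 5.61, 5.53 and 5.1 on the Sham AL arrays. Every RYGB array lay above every sham array, and the sham groups overlapped. It was higher in RYGB than in BWm (1.36 ± 0.25, adjusted p = 0.00222) and than in Sham AL (1.51 ± 0.23, adjusted p = 0.00225). Cyp4a31 was higher in RYGB than in Sham AL (2.02 ± 0.33, adjusted p = 0.00326) and was at 1.04 ± 0.35 against BWm (adjusted p = 0.0891). G0s2, an inhibitor of the lipase that opens lipid droplets, was lower in RYGB against both BWm (-1.26 ± 0.21, adjusted p = 0.000928) and Sham AL (-1.08 ± 0.19, adjusted p = 0.00807). Txnip (-1.13 ± 0.27) and Apoa5 (-1.13 ± 0.19) were the other targets lower in RYGB than in BWm, and the Txnip call ended without BWm replicate 2 (adjusted p = 0.0609).

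**Figure D5:**
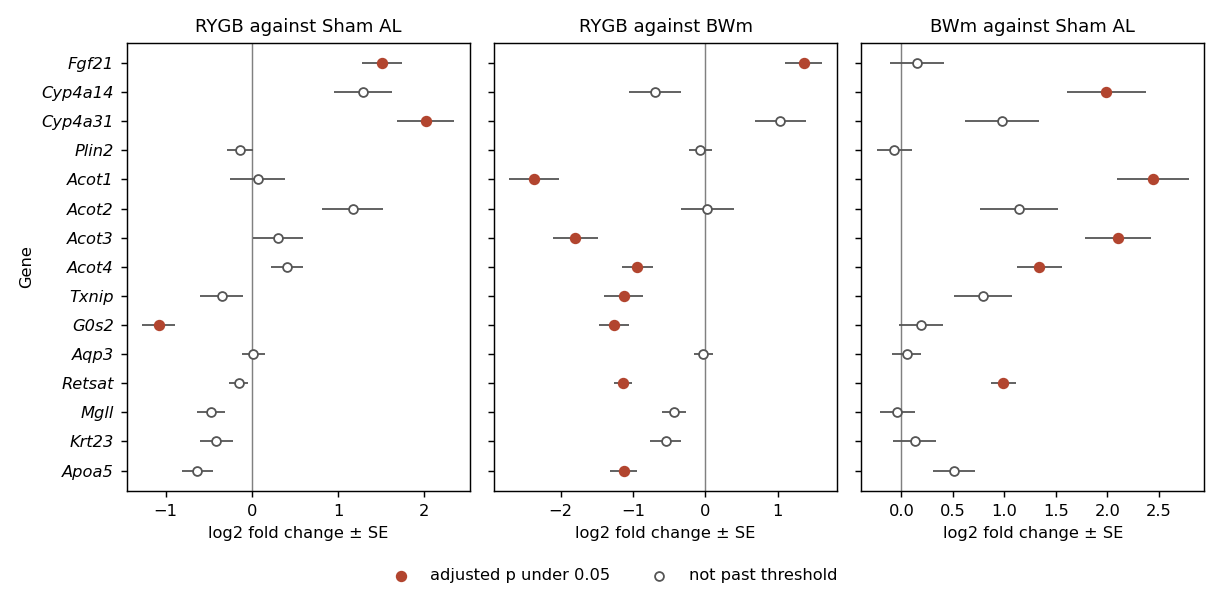
Log2 fold change with its standard error for 15 further PPARα target genes (rows) in RYGB against Sham AL, RYGB against BWm and BWm against Sham AL (panels). Filled points passed an adjusted p of 0.05, and Acot1, Acot3, Acot4 and Retsat are filled below 0 in the middle panel and above 0 in the right one, while Fgf21 is filled above 0 in the left and middle panels.

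Of the 84 further genes measured out of 95 listed, 22 were lower and 2 higher in RYGB against BWm, 5 lower and 2 higher in RYGB against Sham AL, and 1 lower and 11 higher in BWm against Sham AL. The counts without Sham AL replicate 4 were 23 lower and 4 higher, 6 lower and 2 higher, and 1 lower and 9 higher. Among the 10, 5 and 3 calls on the 39 genes in those comparisons, 5, 3 and 1 held in all 15 fits that left out 1 array. The small number of arrays limited the precision, and over the 39 genes the standard errors had a median of 0.13 in both comparisons with BWm and 0.12 in RYGB against Sham AL.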

How the data were processed

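Per the series' design text and the submitters' processing notes, the authors made the deposited log2 values by robust multi-array averaging (RMA) of all 15 arrays in Affymetrix Expression Console 1.4.1.46. The probe annotation version and the build are not given in the sources. Groups came from the labels, which number biological replicates.

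The array has 41345 transcript clusters, of which 23521 carry a single gene symbol, 1814 several and 16010 none. For each of 22180 genes the cluster with the highest mean over the 15 arrays was kept (1082 genes had over 1, among them Crat and Slc27a2). Group means were fitted with limma 3.58.1 in R 4.3.3 (lmFit, eBayes), the 3 contrasts were tested two-sided, and p-values were adjusted by Benjamini-Hochberg over all genes, with a threshold of 0.05. Residual and prior degrees of freedom were 12 and 5.85. Errors are SE, and intervals cover 95%. The methods' one-way ANOVA used a p of 0.05 with a 1.5-fold change. In simulated data with 200 changed genes, 43.3% of 1.5-fold and 88.1% of 2-fold changes were called in RYGB against BWm. The simulation used independent normal noise, with the spread of each gene taken from all 15 arrays. In the data 1411 genes were called in this comparison, so these shares do not give its power.

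All listed members are named in the text, and other genes of the pathway are named by list. The members and lists were chosen with earlier results of these data known. Replicate numbers from the titles were not treated as pairs in the main fit. Deviations of same-numbered arrays correlated at -0.17 to 0.19 over 13 pairs, against -0.268 to 0.194 over 61 pairs of different numbers. Whether same-numbered arrays shared a batch was not tested. Scanner files were not used, so signal over background was not measured. Alternatives were a filter on dim genes, subtraction of array medians, quantile normalization, averaged clusters and a fit on the groups compared. Others were another variance prior, blocks for replicate and animal number, ANOVA, and leaving out each array. The block for animal number split the arrays at 50. Numbers under 50 were held by 3 of 6 RYGB, 1 of 5 Sham AL and 0 of 4 BWm arrays, so this block was uneven over the groups.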

Additional observations from a re-analysis of the deposited data

Results flagged for a closer look

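In 13 of 204 gene and group combinations checked, 6 of them among the 117 of the listed genes, 1 array lay far from the rest of its group by Dixon's criterion. Chance flags about 1 in 20 such groups. Of the 13, 6 were on Sham AL replicate 4 and 4 on RYGB replicate 3.

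On Sham AL replicate 4 the signal was 9.46 for Acadvl, 4.35 for Hadhb and 6.87 for Slc27a1, each above the other 4 Sham AL arrays, whose highest were 9.12, 3.42 and 5.81. On the same array Eci2 measured 8.24, Acad10 6.15 and Ephx2 10.69, each below the others, whose lowest were 8.71, 6.62 and 10.92. This array also held the brown fat and adrenal signals described above.

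On RYGB replicate 3 the signal was 6.58 for Acaa1a, 8.23 for Angptl4 and 6.77 for Sirt3, below the other 5 RYGB arrays, whose lowest were 7, 8.7 and 7.13. On that array Hacl1 measured 9.68, above the 8.92 of the next array. Without RYGB replicate 3 the calls on Angptl4, Sirt3 and Hacl1 in RYGB against BWm were kept.

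The other 3 were Slc22a5 on Sham AL replicate 5 (7.01, next 6.47), Ppara on BWm replicate 1 (9, next 9.13) and Pdk1 on BWm replicate 4 (7.6, next 7.14).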

How the results depend on the processing

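Over 23 other settings, 2571 of 2688 values of single listed genes kept their side of the threshold with no counted turn of sign. Of the rest, 75 lost and 38 gained a call, and 4 turned sign. A turn was counted only where either value was called or the value moved by over 1 SE. Smaller turns stayed among the 2571, as for Crat in RYGB against Sham AL (-0.13, and 0.08 without Sham AL replicate 4). The 4 counted turns were of values never called: Hadhb and Pdk4 in RYGB against Sham AL, at 0.04 and 0.05 without Sham AL replicate 4 (lowest -0.23 and -1.04 with another array left out), Acaa2 in BWm against Sham AL, at -0.02 with quantile normalization, and Vnn1 in BWm against Sham AL, at 0.07 without BWm replicate 1 and -0.35 without Sham AL replicate 4.

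In RYGB against Sham AL, the 4 lower genes became 2 with array medians subtracted, 2 with the replicate block, 2 with the block for animal number and 0 with the ANOVA after Benjamini-Hochberg adjustment, which also gave 0 for the 1 higher gene. Leaving out 1 array gave 2 to 4 lower and 1 to 2 higher. In RYGB against BWm, the 9 lower genes became 17 with the filter on dim genes, which tests fewer genes, and 5 with the replicate block. The 1 higher gene became 0 with array medians subtracted, 0 with the replicate block and 0 with the adjusted ANOVA. Leaving out 1 array gave 5 to 11 lower and 0 to 1 higher. In BWm against Sham AL, the 3 higher genes became 5 with the filter and 0 with the adjusted ANOVA, and 2 to 4 when 1 array was left out. The count of 0 lower genes became 1 with the filter, 1 with the block for animal number, 1 with the ANOVA at the authors' threshold, and 0 to 1 when 1 array was left out. For single genes the text mostly names the calls that ended when 1 array was left out, and other settings ended further calls. The cause of these changes was not tested except where stated.

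The median over the 39 genes in BWm against Sham AL was 0.09, and 0.15 with array medians subtracted. With 1 array left out, the medians ran from -0.19 to -0.15 in RYGB against Sham AL, from -0.31 to -0.28 in RYGB against BWm and from 0.07 to 0.14 in BWm against Sham AL.

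Over all genes, 306 were called in RYGB against Sham AL, 1411 in RYGB against BWm and 629 in BWm against Sham AL. The replicate block gave 174, 903 and 325, and the adjusted ANOVA 54, 833 and 90. The ANOVA at the authors' threshold gave 857 in RYGB against BWm, and the filter gave 1011 in BWm against Sham AL. Leaving out 1 array moved a count by over 1.5 times in RYGB against Sham AL (144 without Sham AL replicate 2, 176 without RYGB replicate 4, 200 without RYGB replicate 6), in RYGB against BWm (930 without BWm replicate 3) and in BWm against Sham AL (382 without Sham AL replicate 2, 284 without BWm replicate 2 or 3). Of the same-numbered pairs, 4 of 13 correlated above 0.1, against 13 of 61 pairs of different numbers, and 2 arrays correlated best with their own number.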
